A study of Homo sapiens with 12 samples.

Results

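This comparison concerns LNCaP cells that received the microRNA miR-205, set against LNCaP cells that received a scramble microRNA, with 3 arrays on each side out of 12 in the series. LNCaP is an established prostate cancer line, called early stage in the labels. It keeps luminal features and responds to androgen. All 12 arrays come from this 1 line, the 3 arrays of a group are described as biological replicates, and the other 6 arrays carry miR-203 or miR-130a (3 each). The labels call the 3 microRNA groups overexpression, and they give neither the amount, the hours after transfection nor the arm of the microRNA. The arrays were chosen by their labels. Of the probe sets of a gene, the brightest on average over the 12 arrays was kept, which gave 11963 genes, and the 6821 of these that exceeded an array's median at least 3 times were tested. The question was which transcripts differed when miR-205 was present in excess.

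MicroRNAs are short RNAs that guide Argonaute proteins to messenger RNAs. Pairing of the seed, bases 2 to 8 of the microRNA, with sites mostly in 3′ untranslated regions leads to lower transcript levels and less translation. A synthetic microRNA therefore acts on many transcripts at once, directly and through the targets' own effects. miR-205 is abundant in basal epithelial cells of prostate, breast and skin and is low in many prostate tumours. It is best known for lowering the junction repressors ZEB1 and ZEB2 and the receptor ERBB3.

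The mature sequences below, from RefSeq on GRCh38.p14, are shown because the seed decides which transcripts pair with the microRNA. Capitals mark the seed. Both arms of miR-205 are given since the labels name none, and the miR-203 arm is given for comparison. miR-130a is named only.
miR-205-5p: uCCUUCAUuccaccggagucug
miR-205-3p: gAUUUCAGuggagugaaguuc
miR-203a-3p: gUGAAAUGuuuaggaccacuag
The arms of miR-205 lie at chr1:209432166-209432187 and chr1:209432203-209432223, both on the plus strand, and miR-203a-3p lies at chr14:104117469-104117490, also on the plus strand. No seed is shared among the 3 sequences. The letters in a transcript that pair with the miR-205-5p seed are AUGAAGG. Transcript sequences were not used here, so no gene below is called a direct target from its sequence.

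Across the tested genes, arrays of the miR-205 group correlated with r of 0.995 to 0.996 and scramble arrays with r of 0.994 to 0.995, against 0.979 to 0.986 between the groups. As a measure of RNA quality, ACTB read 2.21 to 2.46 log2 more on its 3′ than on its 5′ probe set with miR-205 and 2.30 to 2.66 with scramble. For GAPDH the same difference was 0.60 to 0.73 and 0.56 to 0.90. All 8 measured luminal markers, among them KLK3, KLK2, KRT8, KRT18 and HOXB13, lay above the median in both groups, with summed log2 levels of 65.8 to 66.5 (miR-205) and 64.8 to 65.9 (scramble). None of 5 basal markers and none of 7 leukocyte and endothelial markers rose above the median on any array. Of 5 neuroendocrine markers ENO2 did in both groups, and of 8 fibroblast and smooth muscle markers COL1A1 and ACTA2 did, with summed levels of 20.8 to 20.9 with miR-205 and 20.8 to 21.1 with scramble.

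Of the 6821 genes, 1781 (26.1%) passed limma's test at a Benjamini-Hochberg adjusted p under 0.05. With miR-205, 771 genes (11.3%) were higher and 1010 (14.8%) lower. Differences are given as log2 values of miR-205 minus scramble, ± the standard error (SE) of the fit with 3 arrays per group, and 1 unit is a 2-fold change. The median difference over all tested genes was -0.004. The shares of 11.3% and 14.8% are the background for each count of list members against scramble below. Most changes were small, with a median size of 0.45 among genes that passed. At 2-fold or more, the lower genes outnumbered the higher ones by 128 (1.88%) to 23 (0.337%). In these counts a gene that was dim in a group (at or below the median of each of its 3 arrays) entered at a lower bound. The 3 and 3 arrays did not overlap for 2657 genes (39.0%). The arrays are labelled as separate biological replicates, and how the cultures were separated is not given.

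**Figure D1:**
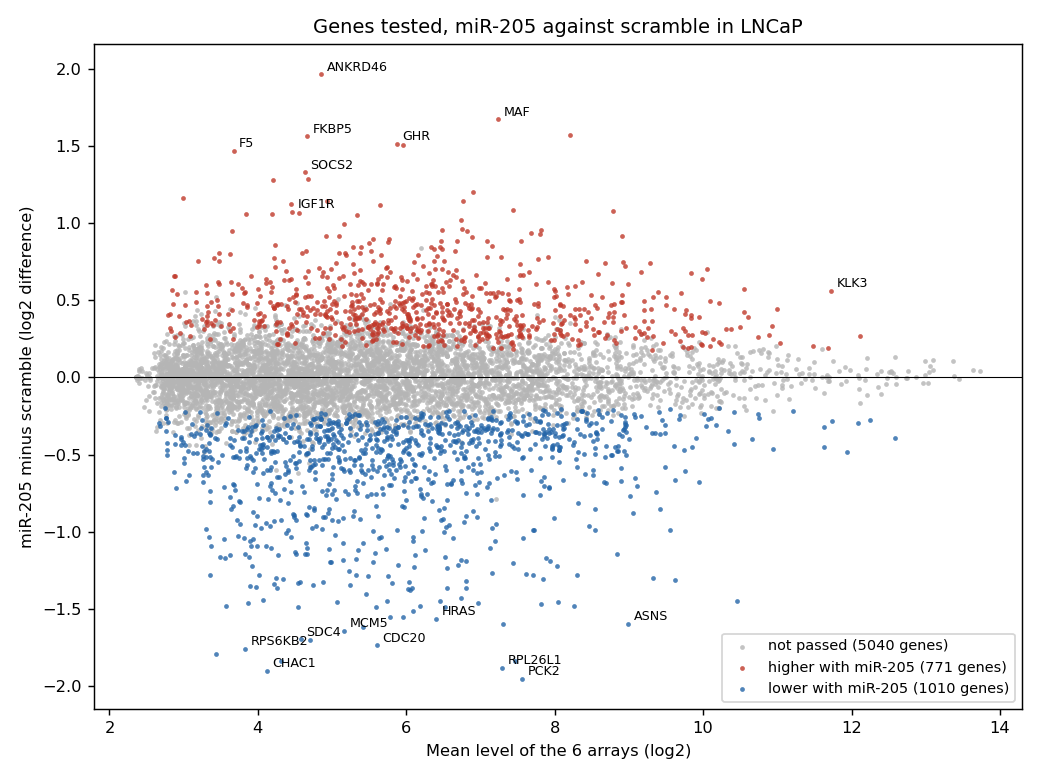
Each point is 1 of 6821 tested genes; the x axis is its mean log2 level over the 6 arrays and the y axis the log2 difference, miR-205 minus scramble. Red and blue points passed the test. More points lie beyond 1 log2 below zero than above it: 128 genes fell and 23 rose by at least 2-fold.

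Among the largest rises were ANKRD46, MAF and the growth hormone receptor. ANKRD46, which encodes an ankyrin repeat protein, read 5.96, 5.65 and 5.90 on the miR-205 arrays and 4.01, 3.82 and 3.80 on the scramble arrays, a difference of 1.96 ± 0.11 (limma, adjusted p = 2.35e-07). Each miR-205 array lay well above each scramble array. The transcription factor MAF stood at 8.12, 8.03 and 8.07 against 6.53, 6.37 and 6.30, a rise of 1.67 ± 0.09 (adjusted p = 2.35e-07). The growth hormone receptor GHR read 6.74, 6.39 and 6.78 with miR-205 and 5.35, 5.02 and 4.98 with scramble (1.51 ± 0.13, adjusted p = 5.79e-06). SOCS2, the feedback inhibitor of that receptor, was at 5.26, 5.25 and 5.38 against 4.02, 3.95 and 3.93 (1.33 ± 0.10). The groups were apart for all 4 genes, with no array of 1 group inside the range of the other.

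CDC42EP3, a binding partner of the GTPase CDC42, rose from 5.31, 5.11 and 5.20 to 6.70, 6.63 and 6.81 (1.51 ± 0.09). F5, which encodes coagulation factor V, rose from 3.11, 2.65 and 3.05 to 4.55, 4.14 and 4.52 (1.47 ± 0.15). The mineralocorticoid receptor NR3C2 rose by 1.12 ± 0.11 and the polyadenylated histone gene H2BC21 by 1.57 ± 0.09. Others among the 15 largest rises were FKBP5, a co-chaperone of steroid receptors (1.56 ± 0.15), the elongation factor ELL2 (1.28 ± 0.17), the semaphorin SEMA6A (1.28 ± 0.14), the endoplasmic reticulum ubiquitin ligase MARCHF6 (1.20 ± 0.16), the deubiquitinase STAMBP (1.14 ± 0.09), NDRG1 (1.14 ± 0.11) and the carrier SLC35F2 (1.12 ± 0.11). All passed at adjusted p of 0.000155 or less.

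Among the largest falls were genes of amino acid metabolism and of the cell cycle. PCK2, the mitochondrial phosphoenolpyruvate carboxykinase, read 6.56, 6.64 and 6.57 with miR-205 and 8.49, 8.54 and 8.58 with scramble (-1.95 ± 0.09, adjusted p = 6.92e-08). CHAC1, which degrades glutathione, read 3.33, 3.29 and 2.897 against 5.05, 4.97 and 5.20 (-1.90 ± 0.14). No miR-205 array came near a scramble array for either gene. RPL26L1, a relative of the ribosomal protein gene RPL26, stood at 6.26, 6.40 and 6.39 against 8.43, 8.06 and 8.20 (-1.88 ± 0.10, adjusted p = 2.35e-07). IFT27, a subunit of the intraflagellar transport complex, was at 3.12, 3.55 and 3.50 against 5.14, 5.17 and 5.37 (-1.84 ± 0.14). TRAM1, which helps proteins into the endoplasmic reticulum, was at 6.30, 6.73 and 6.62 against 8.53, 8.33 and 8.30 (-1.83 ± 0.11). The arrays of the 2 groups were far apart for these 3 genes too.

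The proteoglycan SDC4 fell from 5.20, 5.51 and 5.58 to 3.41, 3.96 and 3.84 (-1.70 ± 0.15). Signalling genes were also among the 15 largest falls: the S6 kinase RPS6KB2 (-1.76 ± 0.11), the GTPase HRAS (-1.56 ± 0.11) and the translation repressor EIF4EBP1 (-1.59 ± 0.09). Cell cycle genes in this set were CDC20 (-1.74 ± 0.19), DLGAP5 (-1.70 ± 0.30), MCM5 (-1.64 ± 0.16) and TPX2 (-1.61 ± 0.16), and asparagine synthetase ASNS was at -1.59 ± 0.10. NIBAN1, a stress-induced gene, was not above the median on any miR-205 array and was at least 2.95-fold lower, from 4.59, 3.93 and 4.45 with scramble.

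Mitotic genes fell nearly as a block. Entry into mitosis needs CDK1 with cyclins A and B, and exit needs the anaphase-promoting complex with its activator CDC20. Of 61 tested genes of the G2 and M phase list, 56 were lower with miR-205, 0 were higher and 5 did not pass, where 14.8% of all tested genes were lower. Their median difference was -1.15, and 41 fell by at least 2-fold. A bulk sample cannot tell fewer cells in a phase from less RNA per cell.

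All 13 tested cyclins, CDK1 regulators and exit factors fell (median -1.18). CDC20 read 4.21, 5.15 and 4.84 with miR-205 and 6.51, 6.62 and 6.28 with scramble. Cyclin B2, CCNB2, read 4.53, 5.61 and 5.38 against 6.85, 6.76 and 6.58 (-1.55 ± 0.22, adjusted p = 0.000185). Every miR-205 array was below every scramble array for both. CDK1 itself was at 7.70, 8.08 and 8.16 against 8.97, 9.05 and 8.80 (-0.96 ± 0.16). The phosphatase CDC25B, which activates CDK1, was at -1.34 ± 0.13 and the kinase WEE1, which restrains it, at -1.03 ± 0.08, so activator and brake were both lower. Securin PTTG1 was at -1.43 ± 0.18 and the ubiquitin carrier UBE2C at -1.23 ± 0.11. The cyclins CCNB1 (-1.18 ± 0.15) and CCNA2 (-1.19 ± 0.24) fell too.

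The mitotic kinases fell in 10 of 10 cases (median -1.24), the spindle proteins and kinesins in 16 of 18 (median -1.15) and the centromere and condensin genes in 14 of 17 (median -1.07). The kinase NEK2 read 3.36, 3.95 and 4.10 against 5.35, 5.37 and 5.14 (-1.49 ± 0.15). Aurora kinase B, AURKB, read 3.000, 2.99 and 3.42 against 4.47, 4.70 and 4.63 (-1.46 ± 0.13). NDC80, which ties kinetochores to microtubules, was at 4.59, 4.93 and 5.005 against 6.32, 6.45 and 6.22 (-1.49 ± 0.17). For each of the 3 genes the miR-205 arrays lay below all scramble arrays. DNA topoisomerase TOP2A fell by 1.48 (SE 0.18). FOXM1 (-1.44 ± 0.19) and MYBL2 (-1.13 ± 0.10), transcription factors of the G2 program, fell, and so did the proliferation antigen gene MKI67, from 4.09, 4.21 and 4.42 to 3.72, 3.66 and 3.51 (-0.61 ± 0.11, adjusted p = 0.000892). The 5 that did not pass were MAD2L1 (-0.79 ± 0.29, adjusted p = 0.0618), KIF23 (-0.26 ± 0.09), CENPA (-0.10 ± 0.09), KIF22 (0.07 ± 0.08) and CENPN (0.14 ± 0.10). Of these MAD2L1 had the widest error. It passed as lower under 6 alternatives, among them a replicate block and without miR-203 replicate 1 (adjusted p from 0.00539 to 0.0459). KIF23 passed as lower without miR-130a replicate 2, without miR-205 replicate 1 or with the mean of its probe sets (adjusted p from 0.0302 to 0.0417). CENPN, which also belongs to the androgen-induced list, was higher with its other probe sets: by 0.97 with the one of largest variance and by 0.55 with the mean of all (adjusted p from 5.13e-05 to 0.00138).

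Replication genes were lower too, less uniformly. The MCM helicase unwinds DNA once origins have been licensed, and polymerases then copy it with the clamp PCNA. Of 64 tested G1-S and replication genes 43 were lower and 0 higher (median -0.63). Origin licensing and helicase genes fell in 15 of 18 cases (median -0.99). MCM5 read 3.94, 4.71 and 4.37 with miR-205 and 6.13, 6.08 and 5.73 with scramble, and MCM7 read 5.70, 6.20 and 5.92 against 6.95, 7.42 and 7.14 (-1.23 ± 0.13). The groups did not touch for either. The other helicase subunits were at -1.12 ± 0.12 (MCM4), -1.04 ± 0.11 (MCM6), -0.99 ± 0.10 (MCM2) and -0.99 ± 0.09 (MCM3), all past the test. GINS2 (-1.34 ± 0.16) and GINS1 (-1.22 ± 0.14), parts of the active helicase, and the loader CDC6 (-1.15 ± 0.15) also fell, while ORC1, a subunit of the origin recognition complex, was at -0.12 ± 0.09 and did not pass.

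Among polymerase and fork genes 14 of 22 fell (median -0.62). PCNA itself read 8.39, 8.75 and 8.76 against 9.40, 9.47 and 9.33 (-0.77 ± 0.11, adjusted p = 0.000256), with no overlap. The histone chaperone ASF1B was at -1.30 ± 0.16, primase PRIM1 at -0.96 ± 0.10 and the flap nuclease FEN1 at -0.95 ± 0.13. RPA1 (0.02 ± 0.08) and TOP1 (0.13 ± 0.07) did not pass. All 6 nucleotide synthesis genes fell (median -1.07): thymidine kinase TK1 was at 4.97, 5.68 and 5.45 against 6.81, 6.71 and 6.56 (-1.33 ± 0.15). RRM2, a subunit of ribonucleotide reductase, was at -1.27 ± 0.15 and thymidylate synthase TYMS at -1.14 ± 0.12.

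The regulators that act before S phase moved less. Of 15 tested G1 cyclins, their kinases and E2F or RB family genes, 6 were lower and 0 higher (median -0.35). Cyclin D1, CCND1, read 6.47, 6.70 and 6.58 against 7.24, 7.41 and 7.36 (-0.75 ± 0.10, adjusted p = 9.84e-05). Cyclin E2, CCNE2, was at -1.02 ± 0.23, the phosphatase CDC25A at -0.79 ± 0.08 and the kinase CDK2 at -0.57 ± 0.09. E2F1, the factor that opens S phase, read 3.34, 3.24 and 3.29 with miR-205 and 3.69, 3.61 and 3.61 with scramble; at -0.35 ± 0.13 it did not pass (adjusted p = 0.0626). It passed as lower under 5 alternatives: a replicate block, only the 6 compared arrays, the mean of its probe sets, and without miR-130a replicate 1 or 2 (adjusted p from 0.00917 to 0.0425). The kinase inhibitor CDKN1A read 9.39, 9.27 and 9.24 against 9.19, 8.73 and 9.14, a difference of 0.28 ± 0.12 that did not pass (adjusted p = 0.0941) except without scramble replicate 1 (adjusted p = 0.0493). Of the other inhibitors, CDKN1B was at -0.31 ± 0.10 and the phosphatase gene CDKN3, which rises with mitosis, at -1.51 ± 0.16, both lower. CDKN1B lost its call under 11 alternatives, among them without miR-205 replicate 1 or 2, scramble replicate 2 or 3, miR-130a replicate 1 or 3 or miR-203 replicate 2 (adjusted p from 0.0502 to 0.15).

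DNA repair genes were also lower. Of 21 tested, 13 were lower and 1 higher (median -0.48). The Fanconi genes FANCI (-1.07 ± 0.16) and FANCG (-1.03 ± 0.12) fell most, followed by the recombination genes RAD54L (-0.92 ± 0.16), RAD51AP1 (-0.89 ± 0.12) and BRCA1 (-0.89 ± 0.15) and the checkpoint kinase CHEK1 (-0.80 ± 0.19). CHEK1 did not pass with no filter on dim probe sets (adjusted p = 0.0585). The kinase ATR was the 1 gene that rose (0.23 ± 0.08, adjusted p = 0.0403). It did not pass under 9 alternatives, among them without any 1 of the miR-205 arrays, scramble replicate 2 or 3 or miR-130a replicate 2 (adjusted p from 0.0522 to 0.129). ATM was at 0.06 and did not pass. Of 9 histone genes 5 were lower, or 3 without miR-205 replicate 1, with H2AX at -0.99 ± 0.11. H2BC21 was the exception, at 9.03, 9.03 and 8.93 with miR-205 and 7.41, 7.32 and 7.54 with scramble. Its adjusted p was 2.35e-07.

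Cell cycle genes were lower with miR-205 than in the other microRNA groups as well. Against miR-203, 43 of the 61 G2 and M phase genes were lower and 1 was higher (median -0.60), while 1432 of all 6821 genes were lower and 1153 higher, 37.9% together. Against miR-130a 58 were lower and 0 higher (median -1.57; 18.2% of all genes were lower). CDC20, for example, differed from miR-203 by -0.74 ± 0.19 (limma, adjusted p = 0.00715) and from miR-130a by -1.95 ± 0.19. The 1 gene above its miR-203 level was CENPN, at 1.24 ± 0.10. For replication genes the counts were 32 of 64 lower against miR-203 and 54 of 64 lower with 4 higher against miR-130a. These 3 comparisons share the 3 miR-205 arrays.

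**Figure D2:**
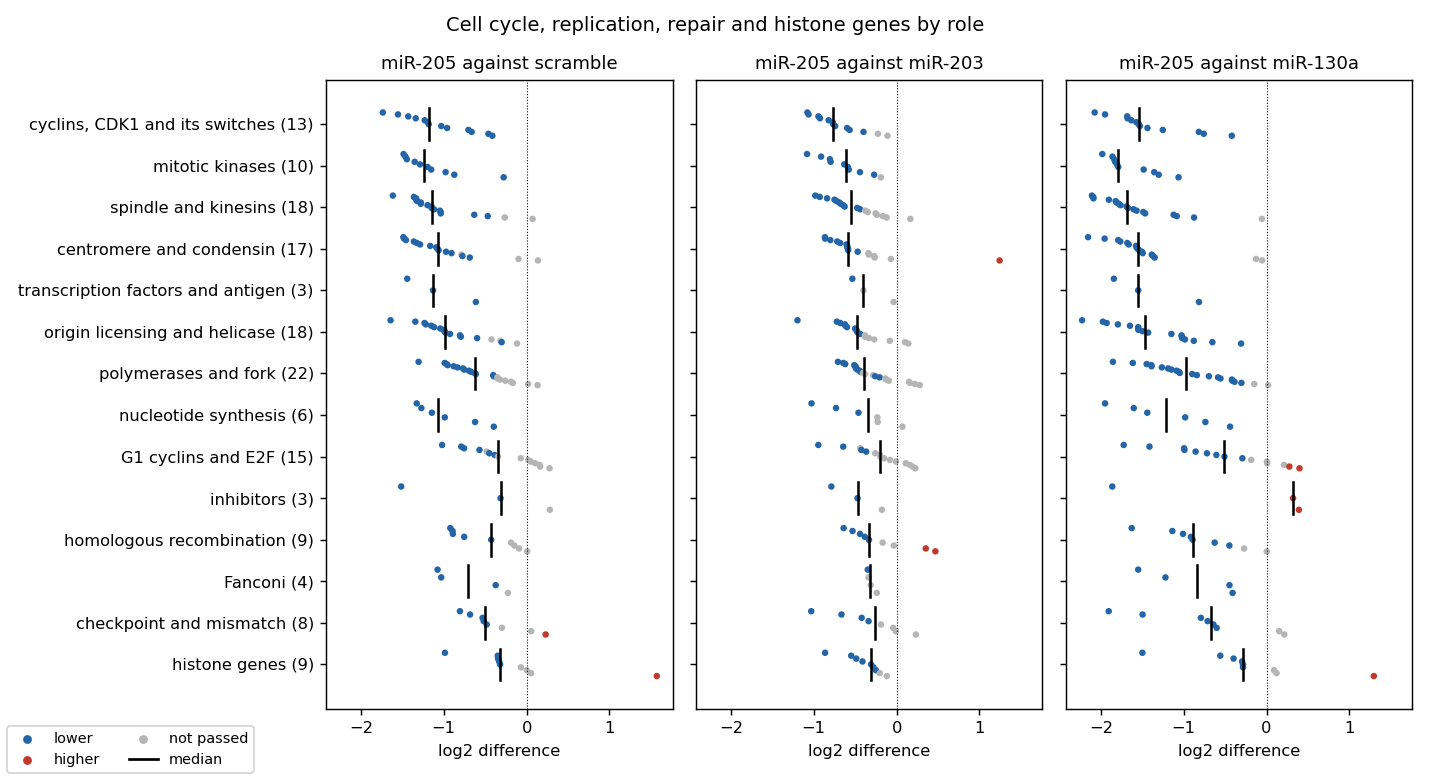
Each point is a tested gene and the x axes are log2 differences, miR-205 minus scramble, miR-203 or miR-130a from left to right; rows are roles with the number of genes in brackets, and black bars are medians. Medians of the G2 and M phase roles lie between -1.24 and -1.07 against scramble, and H2BC21 is the red point far right in the histone row.

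Promoters of these genes can be set beside their values. The windows hold the 250 bases before the RefSeq start (GRCh38.p14), of which 5737 of the 6821 tested genes had one. Searched on both strands were CCAAT (the box bound by NF-Y), TTTGAA or TTCGAA (letters of the cell cycle homology region), the E2F letters TTTGGCGC, TTTCCCGC, TTTCGCGC and TTTGCCGC, and TGATGNAA (letters of the amino acid response element). Matches of different motifs may overlap in part. CCAAT was present in 31 of 46 lower G2 and M phase genes (67.4%), in 37.4% of all tested genes and in 33.0% of the 27305 promoters. The homology region letters were present in 22 of the 46 (47.8%), against 9.20% of tested genes and 14.6% of all promoters. The E2F letters were present in 10 of 36 lower replication genes (27.8%), against 4.86% and 2.79%. The amino acid response letters were present in 3 of 20 lower genes of the ATF4 list described next against 1.20% of tested genes and 3.19% of all promoters. Among all tested members, lower or not, CCAAT was present in 36 of 51 G2 and M phase genes (70.6%) and the homology region letters in 25 (49.0%). The E2F letters were present in 17 of 54 replication genes (31.5%) and the amino acid response letters in 3 of 25 ATF4 list genes. CCAAT, homology region and E2F letters were thus no more frequent in lower members than in all tested members of their lists. These shares are descriptions, and a match is not a binding site.
The promoters shown are, for each of the 3 lists, the 2 genes with the largest fall that hold the letters, so that the fall and the letters can be read together. In CDC20 (chr1:43358731-43358980, plus strand) and CCNB2 (chr15:59104896-59105145, plus strand) capitals mark CCAAT and homology region letters, on either strand.
CDC20: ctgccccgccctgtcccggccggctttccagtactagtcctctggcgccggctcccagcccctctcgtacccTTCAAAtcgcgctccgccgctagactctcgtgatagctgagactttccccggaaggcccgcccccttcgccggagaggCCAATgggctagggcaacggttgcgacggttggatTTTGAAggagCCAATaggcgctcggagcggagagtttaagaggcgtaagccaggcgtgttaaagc
CCNB2: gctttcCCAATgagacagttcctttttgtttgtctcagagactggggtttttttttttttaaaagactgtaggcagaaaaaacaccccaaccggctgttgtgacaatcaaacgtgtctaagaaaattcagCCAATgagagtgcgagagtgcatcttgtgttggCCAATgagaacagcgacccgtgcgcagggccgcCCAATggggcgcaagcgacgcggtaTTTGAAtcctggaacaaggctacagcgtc
In CDC20 a CCAAT begins 55 bases and TTTGAA 65 bases before the start, and in CCNB2 a CCAAT begins 54 bases and TTTGAA 29 bases before it. In GINS2 (chr16:85688955-85689204, minus strand) and MCM7 (chr7:100101398-100101647, minus strand) capitals mark the E2F letters.
GINS2: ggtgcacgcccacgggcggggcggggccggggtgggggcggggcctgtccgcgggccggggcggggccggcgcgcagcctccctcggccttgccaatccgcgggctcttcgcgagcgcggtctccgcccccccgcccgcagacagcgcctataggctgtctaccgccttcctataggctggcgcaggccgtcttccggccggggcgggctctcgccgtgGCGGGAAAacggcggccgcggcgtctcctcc
MCM7: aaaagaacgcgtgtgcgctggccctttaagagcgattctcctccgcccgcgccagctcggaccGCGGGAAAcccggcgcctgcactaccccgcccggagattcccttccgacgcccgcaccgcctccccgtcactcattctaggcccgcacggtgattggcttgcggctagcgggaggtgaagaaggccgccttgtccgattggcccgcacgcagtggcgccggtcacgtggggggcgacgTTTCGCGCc
In CHAC1 (chr15:40953221-40953470, plus strand) and ASNS (chr7:97872409-97872658, minus strand) capitals mark the amino acid response letters.
CHAC1: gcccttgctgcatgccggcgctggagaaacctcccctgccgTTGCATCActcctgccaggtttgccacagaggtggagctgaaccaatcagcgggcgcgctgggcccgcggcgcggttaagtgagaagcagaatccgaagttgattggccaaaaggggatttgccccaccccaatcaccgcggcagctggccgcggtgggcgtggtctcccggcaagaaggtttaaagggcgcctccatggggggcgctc
ASNS: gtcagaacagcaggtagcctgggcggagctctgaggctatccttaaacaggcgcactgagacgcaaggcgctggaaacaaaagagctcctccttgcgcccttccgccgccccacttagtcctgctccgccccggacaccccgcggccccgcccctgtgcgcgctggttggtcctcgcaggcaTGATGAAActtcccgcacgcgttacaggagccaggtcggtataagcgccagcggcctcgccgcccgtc
Against scramble, these 6 genes were at -1.74 (CDC20), -1.55 (CCNB2), -1.34 (GINS2), -1.23 (MCM7), -1.90 (CHAC1) and -1.59 (ASNS).

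Genes of the amino acid response formed the second large group. When amino acids run short or another stress slows translation, the factor ATF4 switches on genes that make, import and charge amino acids. Of 31 tested genes 26 were lower with miR-205 and 0 higher (median -0.88), and 12 fell by at least 2-fold. All 8 factors fell. ATF4 itself read 9.04, 9.05 and 9.08 with miR-205 and 9.995, 9.99 and 10.16 with scramble (-0.99 ± 0.07, adjusted p = 9.96e-07). DDIT3, a partner factor also known as CHOP, read 5.33, 5.30 and 5.55 against 6.79, 6.39 and 7.10 (-1.37 ± 0.14). The pseudokinase TRIB3 read 7.18, 6.96 and 7.05 against 8.38, 8.12 and 8.53 (-1.28 ± 0.11). The 3 miR-205 arrays lay below the 3 scramble arrays for each, and CEBPG, a binding partner of ATF4, was at -1.15 ± 0.07.

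Of 12 enzymes 10 fell. ASNS, which makes asparagine, read 7.98, 8.27 and 8.32 against 9.78, 9.78 and 9.80 (adjusted p = 2.39e-07). The serine pathway fell together: PHGDH was at -1.19 ± 0.10, PSAT1 at -1.22 ± 0.12 and SHMT2 at -0.67 ± 0.09, with the mitochondrial folate enzyme MTHFD2 at -1.17 ± 0.08. The groups did not overlap for any of these. CTH (-0.08 ± 0.19) and ALDH18A1 (0.15 ± 0.08) did not pass. Of 6 transporters 4 fell: SLC1A4 (-1.03 ± 0.09), SLC1A5 (-0.92 ± 0.10), SLC3A2 (-0.92 ± 0.08) and the cystine carrier SLC7A11 (-0.76 ± 0.09). SLC38A2, a glutamine carrier, was at 0.17 ± 0.09 and did not pass.

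The aminoacyl-tRNA synthetases, which load amino acids onto transfer RNA and several of which respond to ATF4, were lower in 11 of 16 cases and higher in 1 (median -0.28). The count of lower genes was 7 without miR-205 replicate 1 or without scramble replicate 3. GARS1 (glycine) read 8.91, 9.01 and 8.99 with miR-205 and 10.36, 10.15 and 10.34 with scramble (-1.31 ± 0.09, adjusted p = 9.96e-07). CARS1 (cysteine) was at -0.98 ± 0.09, WARS1 (tryptophan) at -0.94 ± 0.10 and SARS1 (serine) at -0.81 ± 0.07. LARS1 (leucine) rose, from 6.15, 6.06 and 6.19 to 6.57, 6.39 and 6.47 (0.34 ± 0.08, adjusted p = 0.00452). Averaged over the 16 genes, the scramble arrays read 8.56, 8.45 and 8.52, and the miR-205 arrays 8.11, 8.16 and 8.11.

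Chaperones of the endoplasmic reticulum mostly did not pass. Of 37 tested chaperone, sensor and degradation genes 7 were lower and 1 higher (median -0.11), a share of passed genes below the 26.1% of all genes. HSPA5, the main chaperone of this compartment, read 11.25, 11.28 and 11.31 against 11.23, 11.23 and 11.23 (0.05 ± 0.07), and HSP90B1 was at 0.06 ± 0.08; neither passed. The stress factor XBP1 fell by 0.69 (SE 0.12), CRELD2 was at -0.68 ± 0.07 and HERPUD1, a part of the degradation machinery, at -0.50 ± 0.06.

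In the amino acid response the other microRNA groups stood closer to miR-205 than scramble did. Against miR-203, 13 of the 31 genes were lower and 4 higher (median -0.17), and against miR-130a 10 were lower and 3 higher (median -0.05). Of all 6821 tested genes, 1432 were lower and 1153 higher than with miR-203. Against miR-130a, 1243 of all genes were lower and 1050 higher. The share of lower members was thus above that of all genes in both comparisons. PCK2 differed from miR-203 by -0.16 ± 0.09, which did not pass (adjusted p = 0.175), and from miR-130a by -0.32 ± 0.09 (adjusted p = 0.012). ATF4 differed by 0.04 ± 0.07 and 0.09 ± 0.07, and neither passed (adjusted p = 0.694 and adjusted p = 0.377). CHAC1 was lower than in both, by -0.70 ± 0.14 and -0.45 ± 0.14. In all, 9 of the 31 passed as lower in all 3 comparisons, which share the miR-205 arrays. Of all tested genes 6.03% did. The 9 are among the 26 already lower than scramble. Of all 1010 genes lower than scramble 411 passed in all 3, so 9 of 26 was not a larger share.

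Androgen-induced genes moved the other way. In LNCaP cells androgen switches on secreted kallikreins and genes of metabolism and trafficking. Of 36 tested androgen-induced genes 22 were higher with miR-205 and 3 lower (median 0.32), where 11.3% of all genes were higher. KLK3, the gene for prostate-specific antigen, read 12.06, 12.04 and 11.93 with miR-205 and 11.36, 11.48 and 11.50 with scramble (0.56 ± 0.08, adjusted p = 0.000165). Its relative KLK2 read 9.51, 9.58 and 9.42 against 8.73, 8.89 and 8.84 (0.68 ± 0.11). FKBP5 read 5.50, 5.64 and 5.19 against 3.86, 3.73 and 4.06, and ELL2 read 5.01, 4.92 and 4.58 against 3.27, 3.86 and 3.54. No miR-205 array overlapped the scramble arrays in these 4 genes.

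All 6 genes of the transcription and chaperone role rose, MAF and FKBP5 among them, and 13 of 23 metabolism and trafficking genes did (8 without miR-205 replicate 1). NDRG1 read 7.37, 7.47 and 7.18 against 6.19, 6.26 and 6.14, the secretory GTPase RAB3B was at 0.87 ± 0.14 and the enzymes PLPP1 and UAP1 at 0.70 ± 0.08 and 0.68 ± 0.08. Not every member rose. The protease TMPRSS2 read 7.87, 8.07 and 7.88 against 7.92, 8.28 and 8.30 and did not pass (-0.23 ± 0.11, adjusted p = 0.164), though it was lower past the threshold without scramble replicate 1 and with array weights (adjusted p from 0.0275 to 0.0335). STEAP1 was at 0.03 and SPDEF at -0.04, neither past the test. The 3 that fell were RAB27A (-0.48 ± 0.10), SEPTIN9 (-0.46 ± 0.09) and ACP3 (-0.22 ± 0.07, adjusted p = 0.0321). RAB27A has 2 other bright probe sets, at -0.44 and 0.02. ACP3 did not pass under 7 of the alternative settings, among them without any 1 of the 3 miR-205 arrays or of scramble replicates 1 and 3 (adjusted p from 0.0519 to 0.108).

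The pioneer factors of this program did not pass: FOXA1 was at -0.06 ± 0.06, HOXB13 at -0.01 ± 0.11 and GATA2 at 0.07 ± 0.07. Of 52 tested cofactors, Mediator subunits, corepressors and chaperones 7 were higher and 7 lower (median 0.07), where 26.1% of all genes passed. The higher count was 4 without miR-205 replicate 3, and the lower count 3 without miR-205 replicate 1 and 4 without miR-205 replicate 2 or 3 or scramble replicate 2 or 3. MED1, the Mediator subunit that contacts nuclear receptors, read 7.07, 6.85 and 6.82 with miR-205 and 6.20, 5.69 and 6.20 with scramble (0.88 ± 0.14, adjusted p = 0.000515). The Mediator subunit MED13 was at 0.55 ± 0.12 and the chaperone FKBP4 at 0.39 ± 0.09. NCOA4, which also steers ferritin to degradation, fell from 8.86, 8.72 and 8.91 to 8.15, 8.26 and 8.19 (-0.63 ± 0.07).

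The androgen-induced genes differed more from miR-203 than from miR-130a. Against miR-203, 29 of 36 were higher and 2 lower (median 0.60), and against miR-130a 12 were higher and 8 lower (median 0.09). Of all 6821 tested genes, 1153 were higher and 1432 lower than with miR-203. Against miR-130a, 1050 of all genes were higher and 1243 lower. The share of higher members was thus above that of all genes in both comparisons. The share of lower members against miR-130a was near that of all genes. KLK3 was above both, by 1.80 ± 0.08 and 0.84 ± 0.08. FKBP5 was above miR-203 by 2.22 ± 0.15 and did not differ past the threshold from miR-130a (0.10 ± 0.15, adjusted p = 0.655). MAF was above both, by 2.02 ± 0.09 and 1.77 ± 0.09. Of the list 11 genes passed as higher in all 3 comparisons, where 3.84% of all tested genes did. The 11 are among the 22 already higher than scramble. Of all 771 genes higher than scramble 262 passed in all 3, and the 3 comparisons share the miR-205 arrays.

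**Figure D3:**
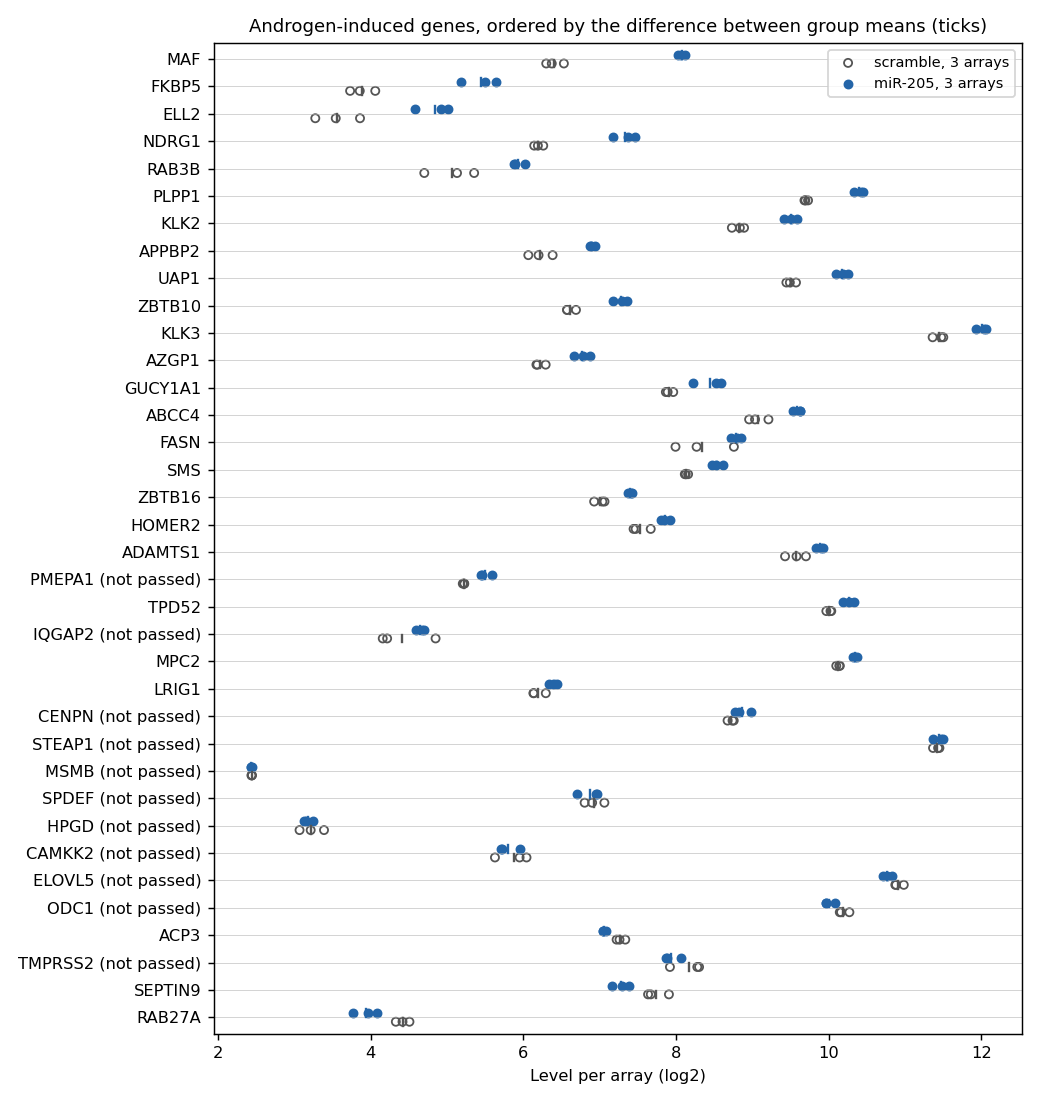
Log2 level on each array for the 36 androgen-induced genes, ordered by difference; filled points are miR-205 arrays, open points scramble arrays and ticks group means. The filled points lie right of the open ones from MAF down to ADAMTS1 except for FASN, where 1 scramble array reaches the miR-205 range, and left of them for ACP3, SEPTIN9 and RAB27A.

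Genes described as miR-205 targets moved in both directions. The list was written from general knowledge of the field. Of 32 tested members 9 were lower and 8 higher, where 14.8% and 11.3% of all tested genes were, and the median was -0.05. The count of higher members was 5 without miR-205 replicate 3 or scramble replicate 3. The junction repressors ZEB1 and ZEB2 were not above the array median often enough to be tested. ERBB3, a growth factor receptor of the EGFR family, read 7.07, 7.19 and 7.22 with miR-205 and 7.30, 7.47 and 7.37 with scramble. Its difference of -0.22 ± 0.09 did not pass (adjusted p = 0.0945). Against miR-203 ERBB3 was lower, by -0.76 ± 0.09 (adjusted p = 3.05e-05), and against miR-130a it was at -0.03 ± 0.09 and did not pass.

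Among members that fell, the transcriptional coactivator YAP1 read 3.11, 2.95 and 3.56 with miR-205 and 3.91, 4.14 and 4.13 with scramble (-0.85 ± 0.14, adjusted p = 0.000689). YAP1 was also below miR-203 (-1.44 ± 0.14) and miR-130a (-1.07 ± 0.14). The centromere protein gene CENPF, which is also in the mitotic list, was at -1.32 ± 0.17, the chromatin protein gene HMGB3 at -0.58 ± 0.08, TM9SF2 at -0.45 ± 0.09 and the GTPase RAP2B at -0.28 ± 0.07. VEGFA, the vascular growth factor, read 6.96, 6.96 and 7.05 against 7.45, 7.56 and 7.50 (-0.51 ± 0.07), while 1 of its 3 other bright probe sets was at 0.01. Members that rose included MED1, described above, the laminin chain LAMC1 (0.78 ± 0.13), the sterol enzyme SQLE (0.83 ± 0.11), the repressor BCL6 (0.71 ± 0.09) and the receptor NOTCH2 (0.46 ± 0.10). Among the rest, ERBB2 (-0.32 ± 0.10), SMAD1 (-0.44 ± 0.15), LPCAT1 (-0.30 ± 0.10), TRPS1 (0.25 ± 0.08), PARP1 (0.28 ± 0.08) and EZR (0.30 ± 0.11) passed less stably. ERBB2 lost its call without miR-205 replicates 1 or 3 or scramble replicates 2 or 3, PARP1 without miR-205 replicates 2 or 3 or scramble replicates 1 or 3. The other 4 lost theirs without miR-205 replicates 1 or 3 (SMAD1 also without replicate 2), without 2 of the 3 scramble arrays (replicates 1 and 3 for SMAD1, 1 and 2 for LPCAT1, 2 and 3 for TRPS1 and EZR) and without some arrays of miR-130a and miR-203. Over all settings that ended a call, the adjusted p of the 6 ranged from 0.0501 to 0.487.

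Growth factor signalling genes moved singly. Receptors such as IGF1R and EGFR signal through RAS to the kinases RAF, MEK and ERK, and through PI3K to AKT and mTOR. Of 40 tested ERBB, RAS and MAPK genes 7 were higher and 6 lower (median -0.07), where 11.3% and 14.8% of all genes were; the lower count was 3 without miR-205 replicate 1 or 3 or scramble replicate 2 or 3. The insulin-like growth factor receptor IGF1R read 5.14, 4.55 and 5.29 with miR-205 and 4.15, 3.79 and 3.82 with scramble (1.07 ± 0.19, adjusted p = 0.000914). The 2 groups were apart. EGFR was at 0.80 ± 0.19 (adjusted p = 0.00884), and it did not pass with only the 6 compared arrays in the fit (adjusted p = 0.0518) or with no filter on dim probe sets (adjusted p = 0.0629). Downstream, HRAS read 5.54, 5.60 and 5.73 against 7.07, 7.24 and 7.25 (adjusted p = 7.99e-07). The adaptor SHC1 (0.54 ± 0.09) and the kinase RPS6KA3 (0.71 ± 0.10) rose. Of 11 tested ERK-induced genes 2 were higher and 2 lower (median -0.07). The feedback inhibitor SPRY1 (0.75 ± 0.13) and the ETS factor ETV1 (0.62 ± 0.11) rose. Cyclin D1, CCND1, fell (-0.75), and so did JUN (-0.28), which lost its call under 7 alternatives.

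In the PI3K, AKT and mTOR list 6 of 32 genes were higher and 8 lower (median 0.01), and 3 of the falls exceeded 2-fold. The higher count was 2 without miR-205 replicate 1 and 3 without miR-205 replicate 2 or scramble replicate 2, and the lower count 4 without miR-205 replicate 1 or 3. RPS6KB2, 1 of the S6 kinases that mTOR activates, read 2.74, 3.10 and 3.01 with miR-205 and 4.74, 4.51 and 4.87 with scramble (adjusted p = 3.28e-07). Its relative RPS6KB1 was at 0.00 ± 0.07 and did not pass. MLST8, a subunit of both mTOR complexes, read 5.81, 6.14 and 5.85 against 6.92, 7.13 and 7.24 (-1.17 ± 0.10). EIF4EBP1, the translation repressor that mTOR inactivates, read 6.33, 6.67 and 6.51 against 8.09, 8.10 and 8.10 and is also a member of the amino acid response list. All 3 were below scramble on every miR-205 array, and all 3 were below miR-203 and miR-130a in the direct comparisons: RPS6KB2 by -2.05 ± 0.11 and -1.57 ± 0.11, MLST8 by -0.96 ± 0.10 and -0.57 ± 0.10. The regulatory subunit PIK3R3 (0.77 ± 0.07) and the mTOR inhibitor TSC2 (0.52 ± 0.12) rose. Of 10 tested brakes on these kinases, TSC2 included, 2 were higher and 3 lower, the lowest at -0.45. With 1 array left out the lower count of these brakes was 1 or 2.

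Lipid genes rose in part. Cholesterol and fatty acid synthesis are switched on by the sterol factors SREBF2 and SREBF1 and are active in prostate cancer cells. Of 21 cholesterol genes 8 were higher and 3 lower (median 0.10). The sterol oxidase MSMO1 read 9.30, 9.27 and 9.40 with miR-205 and 8.29, 8.20 and 8.24 with scramble (1.08 ± 0.08, adjusted p = 9.96e-07). SQLE read 6.83, 6.71 and 6.83 against 5.93, 6.21 and 5.75. Neither gene overlapped between groups. LSS (0.82 ± 0.08), IDI1 (0.69 ± 0.08), HMGCS1 (0.61 ± 0.07) and SREBF2 (0.30 ± 0.09) rose, the last not without miR-205 replicate 1 or 2 or scramble replicate 2 or 3 (adjusted p from 0.0587 to 0.109, with no filter on dim probe sets included), and INSIG1, which holds the sterol factors back, was at -0.25 ± 0.15 and did not pass. Of 8 fatty acid synthesis genes 5 rose, with acetyl-CoA carboxylase ACACA at 0.62 ± 0.07 and the elongase ELOVL6 at 0.55 ± 0.11. The count was 3 without miR-205 replicate 2 or 3 or scramble replicate 1 or 3, where FASN and SCD did not pass. Of 19 fatty acid oxidation genes 2 rose and 3 fell, about the share of all genes that passed (26.1%).

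Of 26 glycolysis and hypoxia genes 10 were higher and 1, VEGFA, lower (median 0.14). BNIP3L, a mitochondrial receptor for mitophagy, read 9.09, 8.97 and 9.07 against 8.35, 8.21 and 8.35 (0.74 ± 0.10, adjusted p = 0.000139). The hypoxia factor gene HIF1A was at 0.47 ± 0.09, the aldolase ALDOC at 0.63 ± 0.09, the phosphofructokinase PFKM at 0.57 ± 0.09 and lactate dehydrogenase LDHA at 0.45 ± 0.09. NDRG1, counted here and with the androgen genes, rose most. The glucose carrier SLC2A1 (0.03 ± 0.06) and PDK1 (-0.02 ± 0.11) did not pass.

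Genes tied to p53, to cell death and to the microRNA machinery showed single changes. Of 24 p53 targets 7 were higher and 3 lower (median 0.12). The death receptor TNFRSF10B read 8.38, 8.30 and 8.21 with miR-205 and 7.37, 7.26 and 7.39 with scramble (0.96 ± 0.07, adjusted p = 1.57e-06), and ZMAT3 was at 0.72 ± 0.11. The secreted factor GDF15, which also responds to ATF4, fell from 11.01, 11.21 and 11.31 to 9.81, 9.67 and 9.70 (-1.45 ± 0.10). BAX (0.13), FAS (0.11) and MCL1 (0.05) did not pass. Of 24 apoptosis regulators 2 were higher and 4 lower, near the 26.1% of all genes, with the mitotic survivin gene BIRC5 at -1.29 ± 0.15. Of 20 microRNA machinery genes 2 were higher and 5 lower. DICER1, which cuts microRNA precursors, read 8.95, 8.55 and 8.90 against 8.22, 7.79 and 8.12 (0.76 ± 0.12, adjusted p = 0.000439). DROSHA (-0.48 ± 0.11) and TARBP2 (-0.59 ± 0.13), which act before and with DICER1, fell. DICER1 did not differ past the threshold from miR-203 (0.22 ± 0.12) or miR-130a (-0.09 ± 0.12).

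Junction and cytoskeleton genes passed about as often as all genes (26.1%). miR-205 is described as keeping epithelial cells in their state, and LNCaP cells already express CDH1, the gene for E-cadherin. CDH1 read 9.93, 9.88 and 10.06 with miR-205 and 10.06, 10.09 and 10.07 with scramble, and at -0.12 ± 0.07 it did not pass (adjusted p = 0.237). Of 21 junction and keratin genes 3 were higher and 4 lower (median -0.03), the latter 2 without miR-205 replicate 1 or 3. The tight junction scaffold TJP1 read 9.35, 9.39 and 9.34 against 8.54, 8.47 and 8.32 (0.91 ± 0.09, adjusted p = 1.64e-05). The desmosomal cadherins DSG2 (0.75 ± 0.10) and DSC2 (0.75 ± 0.11) rose, and the epithelial splicing factor ESRP1 fell (-0.76 ± 0.10). Of 6 tested mesenchymal genes vimentin, VIM, fell from 3.19, 3.18 and 3.48 to 2.79, 2.66 and 2.73 (-0.55 ± 0.10). These low levels with miR-205 lay near the array median of 2.76. Fibronectin FN1 (0.04), SNAI2 (0.27) and TWIST1 (0.37) did not pass. Without miR-205 replicate 2 SNAI2 (0.47) and TWIST1 passed as higher, and TWIST1 did so under 5 other settings (adjusted p from 0.0195 to 0.0495). Of 46 actin and adhesion genes 9 were higher (5 without miR-130a replicate 3 or miR-205 replicate 1) and 4 lower (2 without miR-205 replicate 1 or scramble replicate 3), among them tropomyosin TPM1 (0.36 ± 0.09), focal adhesion kinase PTK2 (0.46 ± 0.09) and RHOC (-0.46 ± 0.10). Of 24 TGF-beta and BMP genes 5 were higher and 2 lower, a share near that of all genes, and the higher count was 0 without miR-205 replicate 1, 2 without miR-205 replicate 3 or scramble replicate 2 or 3 and 3 without scramble replicate 1. The helix-loop-helix inhibitor ID2 was at 0.96 ± 0.24 (adjusted p = 0.0107), and it did not pass without miR-205 replicate 1 (adjusted p = 0.0553).

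Interferon-induced genes marked a contrast between miR-205 and the other microRNAs. Of 42 tested, 4 were higher and 5 lower than scramble (median 0.00). Of the 42, 11 were dim with both miR-205 and scramble and were tested only because other microRNA arrays exceeded the median, so they had little room to pass against scramble, and a lower level than in 1 of the other microRNA groups was built into their choice. The other 31 hold all 9 that passed. IFIT1, an antiviral RNA-binding protein, read 5.61, 5.77 and 5.76 with miR-205 and 4.98, 4.74 and 4.87 with scramble (0.85 ± 0.09, adjusted p = 1.98e-05). IFI35 read 2.94, 2.65 and 3.13 against 3.91, 4.29 and 4.01 (-1.16 ± 0.16). ISG15 was at 0.02 ± 0.10 and the factor IRF9 at -0.01 ± 0.10; neither passed. Of the 27 members above the median on all 3 scramble arrays, a choice that uses neither group compared, 23 were lower than with miR-203 (median -0.75) and 27 lower than with miR-130a (median -1.79), and 0 were higher. Among all 6577 genes so chosen 1395 and 1188 were lower. IFIT1 lay between 9.55 and 9.76 on the miR-203 arrays and between 11.54 and 11.71 on the miR-130a arrays. IFIT3 read 3.17, 3.17 and 3.13 with miR-205, 3.04, 2.99 and 3.17 with scramble, 7.31 to 7.74 with miR-203 and 9.66 to 9.97 with miR-130a. The miR-205 and scramble arrays thus shared the low range, and the other microRNA arrays did not.

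The direct comparisons show which of the largest changes set miR-205 apart. Against miR-203, 2585 genes passed (37.9%), and against miR-130a 2293 (33.6%). Same-numbered miR-205 and miR-203 arrays deviated together, and with replicate numbers as a block 1157 genes were higher and 1426 lower than with miR-203. In all 3 comparisons, which share the miR-205 arrays, 262 genes (3.84%) passed as higher and 411 (6.03%) as lower with miR-205. These are 262 of the 771 genes higher and 411 of the 1010 lower than scramble. Of the genes changed at least 2-fold against scramble, 14 of 23 higher and 103 of 128 lower ones passed in all 3. Those genes were chosen by their size on the same miR-205 arrays, which favours large differences in the other comparisons too. RPL26L1 was below miR-203 by -1.63 ± 0.10 and below miR-130a by -1.85 ± 0.10 (limma, adjusted p = 6.97e-08 and adjusted p = 1.98e-08). IFT27 (-1.41 ± 0.14 and -1.33 ± 0.14), TRAM1 (-1.19 ± 0.11 and -1.19 ± 0.11), SDC4 (-1.93 ± 0.15 and -3.30 ± 0.15) and HRAS (-1.28 ± 0.11 and -1.24 ± 0.11) were likewise below both. Among rises, CDC42EP3 (1.90 ± 0.09 and 1.43 ± 0.09), SOCS2 (1.97 ± 0.10 and 1.20 ± 0.10), IGF1R (1.52 ± 0.19 and 0.92 ± 0.19) and NR3C2 (1.25 ± 0.11 and 1.13 ± 0.11) were above both.

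Other rises did not set it apart. STAMBP was at -0.23 ± 0.09 against miR-203 (adjusted p = 0.0467) and 0.08 ± 0.09 against miR-130a (adjusted p = 0.513), and the call against miR-203 was lost with the replicate block (adjusted p = 0.063). H2BC21 was below miR-203 (-0.25 ± 0.09, adjusted p = 0.0497, and adjusted p = 0.065 with the block) and above miR-130a (1.29 ± 0.09). ANKRD46 was above both by less than above scramble, 0.61 ± 0.11 and 0.35 ± 0.11. Among the 6 largest differences above miR-203 were COX6A1 (2.54 ± 0.13), a respiratory subunit, and the factor CREBL2 (2.09 ± 0.13), and neither differed past the threshold from scramble (0.01 ± 0.13 and 0.07 ± 0.13). Above miR-130a, ENDOD1 stood out at 1.47 ± 0.08, and it was 0.50 ± 0.08 above scramble.

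**Figure D4:**
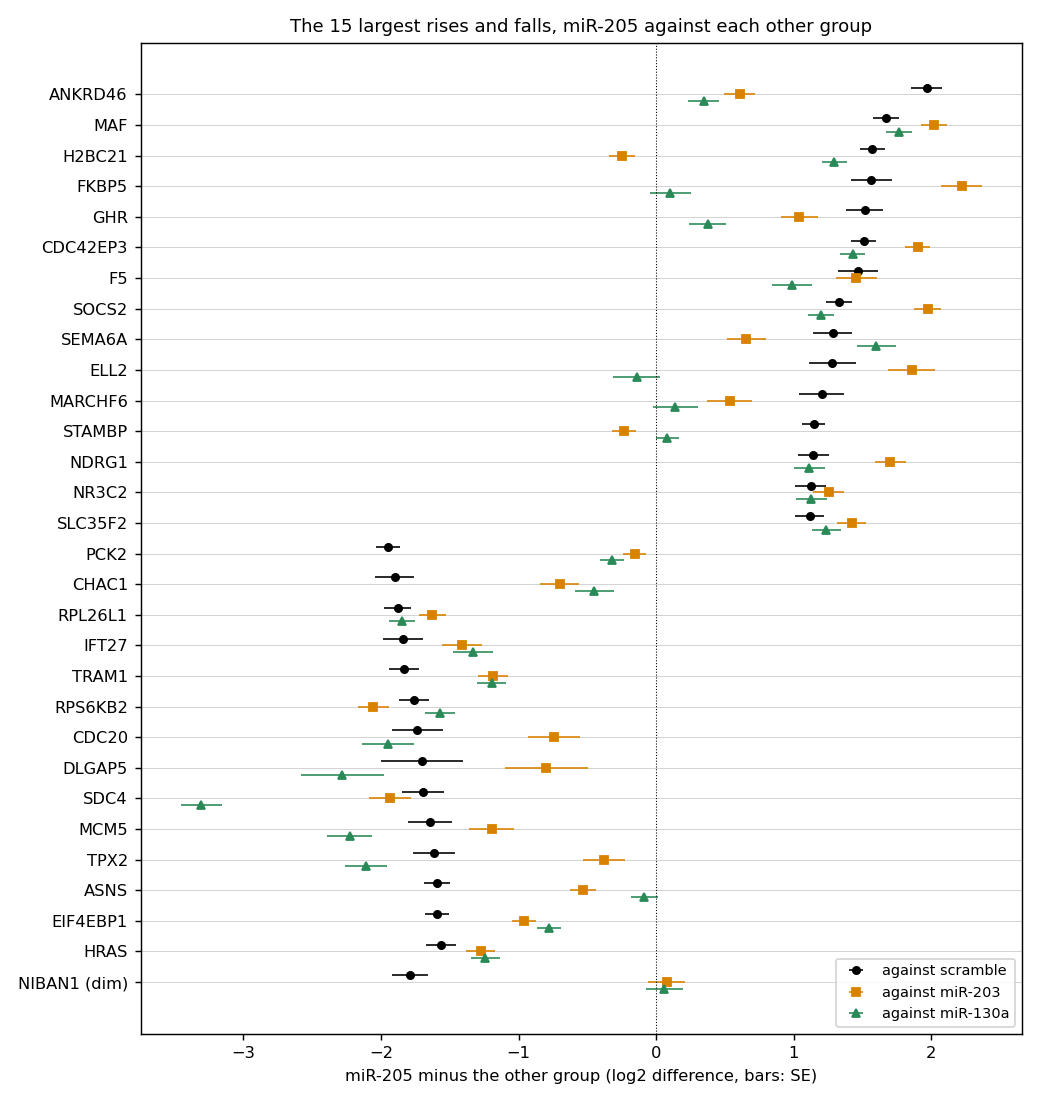
The 15 largest rises (top) and falls (bottom) against scramble, with the log2 difference of miR-205 from scramble (circles), miR-203 (squares) and miR-130a (triangles) on the x axis; bars are the SE of the fit. RPL26L1, IFT27, TRAM1, RPS6KB2 and HRAS lie left of -1 in all 3 comparisons, while NIBAN1, shown at its measured value though dim with miR-205, is near zero against the other microRNAs.

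Most genes with more than 1 probe set gave the same direction on each. Of 924 other bright probe sets of genes that passed, 847 (91.7%) differed in the same direction as the one used, against 67.0% of 2321 for genes that did not pass. For genes changed at least 2-fold it was 57 of 57.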

How the data were processed

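RNA from 3 miR-205 and 3 scramble LNCaP cultures, and from 6 cultures with the other microRNAs, was measured on expression arrays. The deposited log2 values cover 22277 probe sets; R 2.9.0, RMA and limma are named, with no role, per the submitters' processing notes. The background method is not given in the sources used here. Values start at 2.36 log2, and array medians lie between 2.76 and 2.78, so no scaling was added. The platform annotation gave 1 symbol to 19070 probe sets, several to 1043 and none to 2164; only the first were used. Of the 19070 symbols, 19058 were found in RefSeq's table (GRCh38.p14) and 0 changed. The number of arrays limits the precision.

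Group means over all 12 arrays were fitted with limma 3.58.1 in R 4.3.3, with moderation by eBayes (residual degrees of freedom 8, prior 4.84), and two-sided p-values were adjusted by Benjamini-Hochberg over the 6821 genes, with a threshold of 0.05. The same fit gave miR-205 against miR-203 and miR-130a. Deviations from the group means correlated with r of 0.105 to 0.313 between same-numbered miR-205 and miR-203 arrays and with r of -0.284 to 0.0963 between the others, so the numbers pair these 2 groups and a block was also fitted; the pairing comes from the values, not the labels. With miR-130a the same-numbered r was 0.0285 to 0.0755 and that of the other pairs -0.0794 to 0.0239. Same-numbered arrays thus ranked above the others there too, at smaller r. Counts against miR-130a are given without a block. A gene dim in a group was compared at the higher of the array median and its own value. Exactly equal values within a group occur in 1425 genes, which narrows their measured spread. Gene lists were described by counts and medians, with no test of the list, and the promoter counts likewise. On simulated data for the 6821 genes of miR-205 against scramble, 80.5% of genes were recovered at a shift of 0.5 log2, 99.5% at 1 log2 and 100% at 2 log2.

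The comparison and the gene lists were chosen with earlier results of these data known. Genes were named by a rule: per direction the 15 largest differences that passed with no overlap, up to 8 passed and 4 other members of each list, all measured described targets, 10 fixed genes (those measured), and the 6 largest differences per direction from each other microRNA. Other list members are named where a role is described; they were chosen after their values were seen. Alternatives were the filter, scaling, choice of probe set, arrays in the fit, array weights, a trended prior, a replicate block, genes with equal values and each array left out.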

Additional observations from a re-analysis of the deposited data

How the results depend on the processing

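Of 228 named genes that passed, 162 kept their call under every alternative, 66 lost it under at least 1, and 61 named genes that had not passed did so under some setting. With the probe set of largest variance 3 named genes turned direction: EDEM3 was at 0.36, GABARAPL1 at -0.18 and H2AZ2 at 0.13. Genes passed against scramble numbered 1324 (551 higher and 773 lower) with no filter on dim probe sets, 1384 with only the 6 compared arrays, 2045 with array weights, and 1304 to 1927 with 1 array left out, against 1781. The share of lower genes among those passed, 56.7%, was 49.4% with quantile scaling and 50.2% with median scaling. Members lower in the DNA repair list numbered 8 once genes with equal values were left out, a setting that tests fewer genes. Lower aminoacyl-tRNA synthetases ranged from 7 to 11 with 1 array left out. The counts of the mitotic (53 to 57), replication (38 to 45), amino acid response (23 to 27) and androgen-induced lists (16 to 23) stayed within these ranges over all alternatives. The 2-fold count was 151 with bounds and 152 without. Against scramble the replicate numbers did not pair the samples: deviations of same-numbered arrays correlated with r of -0.11 to 0.04, those of other pairs with r of -0.07 to 0.14. With a replicate block 1751 genes passed (768 higher and 983 lower). Against miR-203 the block left 1157 higher and 1426 lower, and a block within the 6 arrays of these 2 groups, chosen after seeing the data, left 1026 higher and 1211 lower. Of the calls against miR-203 given in the text for single genes, STAMBP and H2BC21 lost theirs with the block.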

Other observations

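Genes of the general cell machinery passed less often than all genes or about as often. Of 30 tested ribosomal protein genes 1 passed, RPL19, which was lower at -0.30 ± 0.07 with arrays at 11.89, 11.99 and 11.92 against 12.19, 12.24 and 12.26. The median of the 30 was 0.01. Of 39 respiratory chain and ATP synthase genes 3 were higher and 5 lower (median 0.00), where 26.1% of all genes passed, and without miR-205 replicate 1 it was 0 and 3, with the complex I subunits NDUFS3 (-0.52 ± 0.08) and NDUFA8 (-0.40 ± 0.08) lowest. Of 25 ribosome biogenesis and MYC-induced genes 5 were higher and 2 lower, close to the share of all genes; the higher count was 2 without miR-205 replicate 3 or scramble replicate 3 and 3 without miR-130a replicate 2 or miR-205 replicate 1 or scramble replicate 1 or 2. Among these the translation factor EIF5A rose by 0.46 ± 0.11 and the nucleotide enzyme IMPDH2 was at -0.44 ± 0.07.

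Among degradation and transport lists, lysosome and autophagy genes passed most often. Of 27 proteasome subunits 6 were lower and 0 higher (median -0.15), where 14.8% of all tested genes were lower. The count was 2 without miR-205 replicate 3 and 3 without miR-205 replicate 1 or scramble replicate 2. PSMD8 was at -0.58 ± 0.09 and PSMB6 at -0.45 ± 0.10. Of 34 lysosome and autophagy genes 7 were higher and 8 lower; the higher count was 2 without miR-205 replicate 1, 3 without miR-205 replicate 3 and 4 without scramble replicate 2 or 3, and the lower count 4 without miR-205 replicate 1 or scramble replicate 3 and 5 without miR-130a replicate 2 or 3 or miR-205 replicate 2 or 3 or scramble replicate 2. Examples were the proton pump subunit ATP6V1A at 0.40 ± 0.07, the lysosomal protease CTSL at -0.42 ± 0.07 and the autophagy receptor SQSTM1 at -0.67 ± 0.09. Of 37 Golgi and vesicle genes 7 were higher and 5 lower, where 11.3% and 14.8% of all genes were. The higher count was 3 without miR-205 replicate 1 or scramble replicate 2, and the lower count 3 without scramble replicate 2. The coat subunits SEC31A (0.44 ± 0.08) and SEC13 (-0.52 ± 0.08), which form 1 cage on vesicles leaving the endoplasmic reticulum, differed in opposite directions.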
